A study of Homo sapiens with 6 samples.

Results

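Plasma carriers are proteins that the liver secretes into blood to hold hormones, vitamins and drugs. The 7 genes described here were TTR (transthyretin), RBP4 (retinol-binding protein), ORM1 and ORM2 (the orosomucoids, or alpha-1-acid glycoproteins), LRG1 (leucine-rich alpha-2-glycoprotein), A1BG (alpha-1-B glycoprotein) and VTN (vitronectin), chosen by symbol from the 19089 gene names of the tables. Values were found for 6 of them. VTN had no line in the tables used here, and its level was not analysed here. A1BG was picked because its ratio of ribosome-bound to total mRNA lay on opposite sides of 1 in different lines, so those ratios are given as a description, with no test.

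The study sequenced the polyadenylated RNA of 3 human hepatocellular carcinoma lines, once as mRNA on ribosomes with a nascent chain (RNC-mRNA) and once as total mRNA. Hep3B was grown in MEM with 15% serum and added pyruvate, and HCCLM3 and MHCC97H, which descend from the same parental tumour line, were grown in DMEM with 10% serum. All media held penicillin, streptomycin and ciprofloxacin, and no line carried an added transgene or treatment according to the labels. Each of the 6 libraries pooled equal amounts of 3 cultures, so each line and fraction has 1 library and no replicate. Line, medium and serum cannot be told apart in this design. Levels are RPKM, read counts scaled by gene-model length and by library size. Intervals are exact 95% intervals that cover counting error only, not the variation between cultures or preparations, and reads are not independent molecules.

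Hepatocytes release RBP4 loaded with retinol, and in plasma RBP4 travels bound to TTR, which also carries thyroxine. RBP4 and the orosomucoids share the lipocalin fold, a barrel around a pocket for small lipids. The orosomucoids and LRG1 are acute phase proteins, whose liver transcripts are known to respond to IL-6, IL-1 and glucocorticoids, whereas TTR and RBP4 are known as negative acute phase proteins. VTN binds integrins and the urokinase receptor. The molecular role of A1BG, a member of the immunoglobulin superfamily, is less well described.

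The sequences around the start sites of ORM1, RBP4 and A1BG are shown because these genes were higher in Hep3B together, and A1BG is the gene with opposite ratios. They are RefSeq windows on GRCh38.p14, from 250 bases before to 50 bases after the annotated start, in the direction of the gene. Promoter windows were matched for 4 of the 6 measured genes, and RBP4 has 3 entries, of which the most downstream is printed. Capitals mark runs that match the motifs searched.
ORM1, chr9:114322848-114323147, plus strand: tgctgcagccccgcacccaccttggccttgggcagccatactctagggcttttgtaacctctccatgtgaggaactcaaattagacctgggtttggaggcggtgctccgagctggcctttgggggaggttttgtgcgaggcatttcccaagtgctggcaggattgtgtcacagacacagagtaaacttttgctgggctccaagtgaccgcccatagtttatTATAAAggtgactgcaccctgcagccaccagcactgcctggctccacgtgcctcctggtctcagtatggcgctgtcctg
RBP4, chr10:93601186-93601485, minus strand: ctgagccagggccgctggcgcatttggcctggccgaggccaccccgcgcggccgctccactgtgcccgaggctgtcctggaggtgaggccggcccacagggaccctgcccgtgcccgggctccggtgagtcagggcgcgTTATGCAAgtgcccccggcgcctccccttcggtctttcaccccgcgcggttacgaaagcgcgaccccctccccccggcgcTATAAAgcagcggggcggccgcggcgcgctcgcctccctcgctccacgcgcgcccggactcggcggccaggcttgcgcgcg
A1BG, chr19:58353443-58353742, minus strand: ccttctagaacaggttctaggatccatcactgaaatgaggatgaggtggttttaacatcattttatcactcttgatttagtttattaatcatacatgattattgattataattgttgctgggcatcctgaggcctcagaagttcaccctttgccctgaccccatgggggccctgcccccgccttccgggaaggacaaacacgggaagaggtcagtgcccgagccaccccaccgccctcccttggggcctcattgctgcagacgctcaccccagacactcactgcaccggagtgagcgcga

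The motifs searched on both strands were TATAAA, the core promoter element, TTGCNNAA, a motif bound by the C/EBP family, CTGGGAA, the IL-6 response element, TGTTTAC, a motif of the forkhead factors FOXA, GTTAAT, the half-site of the homeobox factors HNF1, and CAAAGTCCA, a motif of the nuclear receptor HNF4. ORM1 held TATAAA at position -29 from the start and none of the other motifs. RBP4 held TATAAA at -31 and a C/EBP match, TTATGCAA on the strand printed, at -111. The A1BG and LRG1 windows held none of the 6 motifs. Over 35116 RefSeq promoter windows of the same length, TATAAA occurred in 11.5%, TTGCNNAA in 10.5%, CTGGGAA in 10.8%, TGTTTAC in 3.42%, GTTAAT in 6.88% and CAAAGTCCA in 0.384%. GC content was 56.3% for ORM1, 76.0% for RBP4 and 52.7% for A1BG. A match describes letters in these windows and says nothing about binding in the lines.

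The tables held 119086844 to 147788269 reads per library. By the size rule given with the member counts, 8 of the 10 hepatocyte markers were higher in Hep3B mRNA than in either other line, and 0 were lower. The keratins KRT8 and KRT18 had 694 and 388 RPKM of mRNA in Hep3B, 1824 and 679 in HCCLM3, and 1700.4 and 616 in MHCC97H. The 10 hepatocyte markers summed to 7747 RPKM of mRNA in Hep3B, 2518 in HCCLM3 and 2345 in MHCC97H, and KRT8 and KRT18 together made up most of the sum in HCCLM3 and MHCC97H. None of the 10 was at 0 in a library, but ALB, which encodes albumin, stood at 4164 RPKM of mRNA in Hep3B, 1.93 in HCCLM3 and 12.0 in MHCC97H. CPS1 was low throughout, at 2.01 RPKM of mRNA in Hep3B, against 0.280 in HCCLM3 and 0.231 in MHCC97H. The members' higher levels in Hep3B thus stand beside higher levels of 8 of these 10 markers, whose part in the results was not tested. Fewer cells of a kind and less RNA per cell cannot be told apart in such bulk libraries. The 6 cholangiocyte markers summed to 321 RPKM of mRNA in Hep3B, 640 in HCCLM3 and 493 in MHCC97H, with EPCAM at 143, 0.290 and 0.203 RPKM, KRT7 at 2.55, 48.0 and 25.7 RPKM and KRT19 at 131, 583 and 459 RPKM. Among markers of other cell types in mRNA, the 10 stellate cell markers summed to 14.7, 5.99 and 3.596 RPKM in Hep3B, HCCLM3 and MHCC97H, with DES at 0 in Hep3B and MHCC97H. PDGFRB had 9.02, 0.0215 and 0.0282 RPKM, PDGFRA 3.30, 0.0234 and 0.0298 RPKM, and COL3A1 0.00815, 2.49 and 0.408 RPKM. By the size rule, 2 of 4 tested were higher and 1 lower in Hep3B than in HCCLM3, and 2 of 3 higher and 0 lower than in MHCC97H. The 8 leukocyte markers summed to 127, 76.9 and 52.2 RPKM in the same order, most of it LYZ and CD68 in Hep3B, and PTPRC was at 0.103, 0.0723 and 0.0619 RPKM. The 8 endothelial markers summed to 1.48, 5.62 and 10.3 RPKM, with VWF, KDR and TEK at 0 in Hep3B, and the 6 erythroid markers to 0.598, 1.04 and 0.959 RPKM.

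All 6 measured genes were abundant in Hep3B and scarce in HCCLM3 and MHCC97H. Together they took 0.213% of the RNC-mRNA reads of Hep3B, against 0.00152% in HCCLM3 and 0.00115% in MHCC97H. In mRNA the reads taken were 0.105% in Hep3B, 0.00279% in HCCLM3 and 0.00181% in MHCC97H. By the rule used for single libraries, a 4-fold difference in (RPKM + 0.1) where the higher library reached 1 RPKM, 6 of 6 were higher in Hep3B in each of the 4 comparisons. The same call was made for 9.92% of 12737 genes in mRNA over HCCLM3 and 9.44% of 12728 over MHCC97H, and for 9.74% of 12212 genes in RNC-mRNA over HCCLM3 and 9.55% of 12222 over MHCC97H. None of the 6 was lower in Hep3B, a call made in mRNA for 8.5% of genes over HCCLM3 and 8.16% over MHCC97H, and in RNC-mRNA for 11.1% over HCCLM3 and 11% over MHCC97H. All 6 passed the minimum of 1 RPKM through their level in Hep3B, and they were chosen with such differences known, so the count describes the set and supports nothing further. The ratio is on a (RPKM + 0.1) scale, which understates folds of low genes, and the folds printed for single genes are plain ratios of RPKM.

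**Figure D1:**
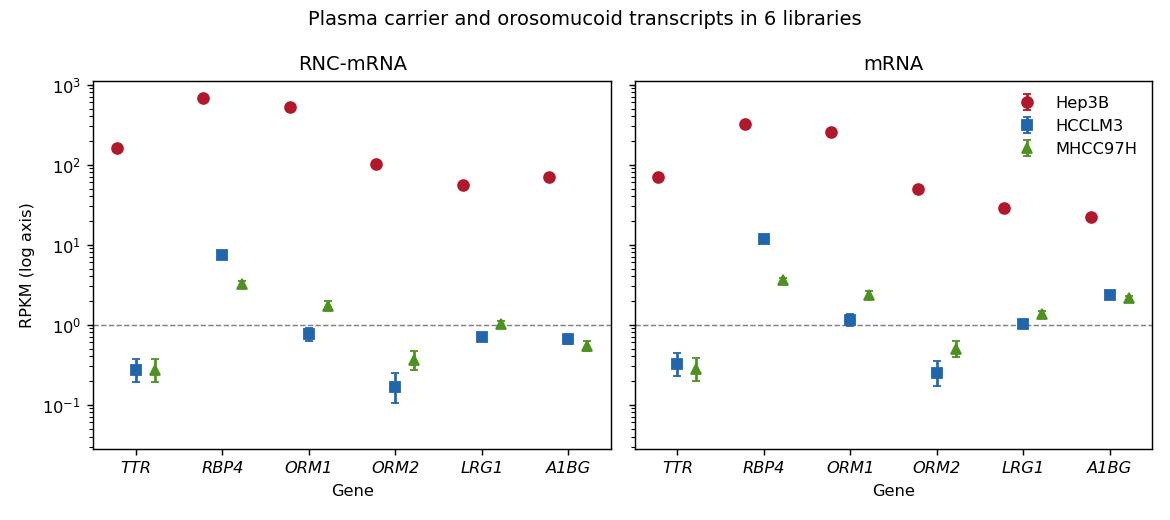
RPKM on a log axis of the 6 measured genes in RNC-mRNA (left) and mRNA (right), with Hep3B, HCCLM3 and MHCC97H as separate symbols, 1 library each. Bars are exact 95% intervals for counting error and the dashed line marks 1 RPKM. Each Hep3B point lies above both other lines, from 22.4 to 682 RPKM.

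TTR, the thyroxine and retinol-complex carrier on chromosome 18, showed near-absence outside Hep3B. Its RNC-mRNA level was 162 RPKM in Hep3B, against 0.269 in HCCLM3 and 0.271 in MHCC97H. Its mRNA level was 69.2 RPKM in Hep3B, against 0.322 in HCCLM3 and 0.278 in MHCC97H. Those low values rest on 38 to 40 reads a library, against 24398 RNC-mRNA reads and 8789 mRNA reads in Hep3B. TTR mRNA was 215-fold higher in Hep3B than in HCCLM3 (158 to 301) and 249-fold higher than in MHCC97H (181 to 352). In RNC-mRNA the folds were 603 (439 to 852) over HCCLM3 and 599 (438 to 843) over MHCC97H. HCCLM3 and MHCC97H did not differ beyond counting error, with a fold of HCCLM3 over MHCC97H of 0.995 in RNC-mRNA (0.619 to 1.60) and 1.16 in mRNA (0.723 to 1.85).

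RBP4, the retinol carrier on chromosome 10, was the highest of the 6 genes in each of the 6 libraries and the only one whose levels in HCCLM3 and MHCC97H stayed above 3 RPKM. Its RNC-mRNA level was 682 RPKM in Hep3B, against 7.42 in HCCLM3 and 3.25 in MHCC97H. Its mRNA level was 324 RPKM in Hep3B, against 11.8 in HCCLM3 and 3.57 in MHCC97H. In Hep3B it ranked 55 among genes by RNC-mRNA level and 91 by mRNA level. RBP4 mRNA was 27.4-fold higher in Hep3B than in HCCLM3 (26.2 to 28.7) and 90.8-fold higher than in MHCC97H (84.1 to 98.1). In RNC-mRNA the folds were 91.9 over HCCLM3 (87.2 to 96.8) and 210 over MHCC97H (194 to 227), so the RNC-mRNA difference exceeded the mRNA difference against both lines. RBP4 also separated the related lines. It was 3.31-fold higher in HCCLM3 than in MHCC97H in mRNA (3.03 to 3.62), a ratio exceeded by 38 of the 11715 genes tested, and 2.28-fold higher in RNC-mRNA (2.08 to 2.51), both under the 4-fold rule.

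ORM1 and ORM2 are near-identical neighbours on chromosome 9, and how the authors shared reads between such copies is unknown here, so their split is uncertain. ORM1 RNC-mRNA was at 527 RPKM in Hep3B, against 0.762 in HCCLM3 and 1.73 in MHCC97H. ORM1 mRNA was at 259 RPKM in Hep3B, against 1.14 in HCCLM3 and 2.36 in MHCC97H. These levels place ORM1 next to RBP4 in Hep3B, with ranks of 79 in RNC-mRNA and 123 in mRNA. ORM2 RNC-mRNA was at 103 RPKM in Hep3B, against 0.166 in HCCLM3 and 0.359 in MHCC97H, and ORM2 mRNA at 50.1, 0.251 and 0.5003 RPKM in the same order of lines. Both genes were thus lower in HCCLM3 than in MHCC97H. ORM1 mRNA was 227-fold higher in Hep3B than in HCCLM3 (193 to 268) and 110-fold higher than in MHCC97H (98.9 to 123). ORM2 mRNA was 199-fold higher than in HCCLM3 (141 to 292) and 100.1-fold higher than in MHCC97H (79.1 to 129). In RNC-mRNA the Hep3B folds of ORM1 were 691 over HCCLM3 (574 to 840) and 304 over MHCC97H (269 to 345), and those of ORM2 were 620 (416 to 967) and 286 (219 to 383). The intervals of ORM1 and ORM2 overlap in each of these comparisons. HCCLM3 held 0.485 of the MHCC97H level of ORM1 mRNA (0.397 to 0.591) and 0.502 of that of ORM2 mRNA (0.320 to 0.774).

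The share of ORM1 among the reads of both genes lay between 82.2% and 84.0% in the 6 libraries. In RNC-mRNA it was 83.9% in Hep3B (83.7 to 84.1), 82.4% in HCCLM3 (74.9 to 88.4) and 83.1% in MHCC97H (78.4 to 87.1). In mRNA it was 84.0% in Hep3B (83.7 to 84.4), 82.2% in HCCLM3 (75.8 to 87.5) and 82.7% in MHCC97H (78.7 to 86.3). The exact binomial intervals of the 6 libraries overlap.

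LRG1, a secreted acute phase glycoprotein on chromosome 19 that in mouse endothelium modulates TGF-beta signalling through endoglin, had the lowest RNC-mRNA level of the 6 genes in Hep3B. Its RNC-mRNA level was 54.9 RPKM in Hep3B, against 0.697 in HCCLM3 and 1.02 in MHCC97H. Its mRNA level was 29.0 RPKM in Hep3B, against 1.01 in HCCLM3 and 1.35 in MHCC97H. Hep3B was again far above both other lines, which lay close to 1 RPKM. LRG1 mRNA was 28.8-fold higher in Hep3B than in HCCLM3 (26.1 to 31.9) and 21.5-fold higher than in MHCC97H (19.7 to 23.3). In RNC-mRNA the folds were 78.8 over HCCLM3 (70.5 to 88.4) and 53.7 over MHCC97H (49.0 to 59.0). In HCCLM3 it was at 0.682 of the MHCC97H level in RNC-mRNA (0.589 to 0.789) and 0.744 in mRNA (0.654 to 0.847).

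A1BG, also on chromosome 19, had the smallest mRNA difference between lines of the 6 genes. Its RNC-mRNA level was 69.5 RPKM in Hep3B, against 0.657 in HCCLM3 and 0.548 in MHCC97H. Its mRNA level was 22.4 RPKM in Hep3B, against 2.36 in HCCLM3 and 2.15 in MHCC97H. The mRNA folds were 9.49 over HCCLM3 (8.78 to 10.3) and 10.4 over MHCC97H (9.66 to 11.3), while the RNC-mRNA folds were 106 (92.7 to 121) and 127 (110 to 147). A1BG was the gene whose line differences in the fractions were furthest apart, which is what it was picked for. HCCLM3 and MHCC97H did not differ beyond counting error for A1BG, at 1.20 in RNC-mRNA (0.983 to 1.46) and 1.10 in mRNA (0.990 to 1.22).

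**Figure D2:**
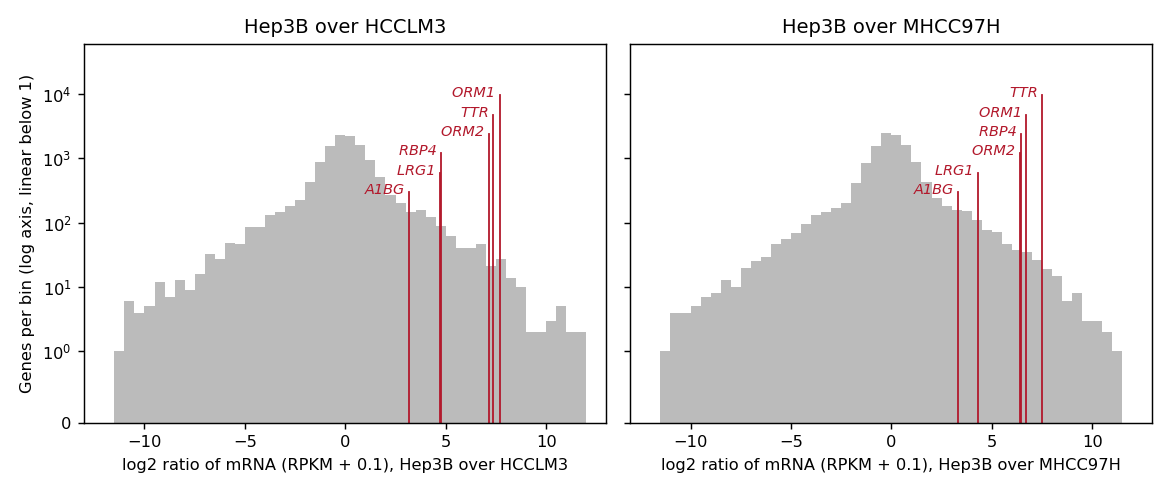
Distribution over all genes of the log2 ratio of mRNA (RPKM + 0.1) of Hep3B over HCCLM3 (left) and over MHCC97H (right), with genes per bin on a log axis. Vertical lines mark the 6 measured genes, at log2 3.19 (A1BG) to 7.71 (ORM1) over HCCLM3 and 3.33 (A1BG) to 7.52 (TTR) over MHCC97H.

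The order of levels, compared per length, was RBP4, ORM1, TTR, ORM2, A1BG and LRG1 in Hep3B RNC-mRNA, and LRG1 stood above A1BG in Hep3B mRNA. No neighbours in the Hep3B order had overlapping intervals. In HCCLM3 and MHCC97H the order was less resolved. TTR and ORM2 could not be separated in HCCLM3 in either fraction or in MHCC97H RNC-mRNA, and the same held for ORM1 and LRG1 in HCCLM3, for LRG1 and A1BG in HCCLM3 RNC-mRNA and for ORM1 and A1BG in MHCC97H mRNA. RBP4 led in every library, and A1BG was second in HCCLM3 mRNA.

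Over all genes tested the median log2 ratio of Hep3B RNC-mRNA was -0.25 over HCCLM3 and -0.26 over MHCC97H, and both came to 0.04 when libraries were rescaled with TMM factors. Against this shift the median of the 6 genes was 7.56 over HCCLM3 and 7.74 over MHCC97H in RNC-mRNA. In mRNA it was 5.96 over HCCLM3 and 6.42 over MHCC97H, against medians over all genes of 0.03 and 0.01. Between the related lines, 0 of the 3 members tested in RNC-mRNA and 0 of the 4 tested in mRNA passed the 4-fold rule, where 0.325% of genes were higher and 0.369% lower in HCCLM3 RNC-mRNA, and 0.222% higher and 0.333% lower in HCCLM3 mRNA. These comparisons share libraries, so they are given side by side and not as independent results.

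The ratio of RNC-mRNA to mRNA asks how much of a transcript was on ribosomes relative to other transcripts of the same line. The deposited tables mark the fractions with the letters A and C, read here as mRNA and RNC-mRNA; no label states this outright, and exchanging them would turn each ratio round. In Hep3B the ratios of the 6 genes lay above 1, and in HCCLM3 and MHCC97H below 1. In Hep3B, 5 of 6 were at least 2-fold higher in RNC-mRNA with both fractions at 1 RPKM or more, a call made for 1.89% of 10825 genes. As much lower were 0 of 6, a call made for 7.73%. Under both rescalings of the libraries, 6 of 6 were at least 2-fold higher. The number of all genes called higher was 205 as deposited and ranged from 152 to 381 over the alternatives of processing. Since A1BG was chosen on this ratio, it adds nothing to the counts of members. The median log2 ratio in Hep3B was 1.05 for the 6 genes, A1BG included, and -0.03 for the genes tested.

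The Hep3B ratio was 2.35 for TTR (2.29 to 2.40), 2.10 for RBP4 (2.08 to 2.12), 2.03 for ORM1 (2.01 to 2.06), 2.05 for ORM2 (1.996 to 2.12) and 1.89 for LRG1 (1.85 to 1.93). These 5 values lie close together. LRG1 was just outside the 2-fold rule and ORM1 just inside it. Of the 10825 genes, 104 had a higher ratio than TTR, 171 than RBP4, 187 than ORM2, 192 than ORM1 and 281 than LRG1.

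In HCCLM3 the fraction ratio was 0.837 for TTR (0.523 to 1.34), 0.627 for RBP4 (0.586 to 0.672), 0.667 for ORM1 (0.517 to 0.858), 0.661 for ORM2 (0.372 to 1.16) and 0.692 for LRG1 (0.595 to 0.805). In MHCC97H it was 0.973 for TTR (0.606 to 1.56), 0.910 for RBP4 (0.815 to 1.02), 0.736 for ORM1 (0.623 to 0.868), 0.718 for ORM2 (0.493 to 1.04) and 0.756 for LRG1 (0.668 to 0.855). The intervals of TTR and ORM2 include 1 in both lines, as does that of RBP4 in MHCC97H. RBP4 alone passed the minimum of 1 RPKM in both fractions of HCCLM3 and RBP4, ORM1 and LRG1 in MHCC97H, and 0 of these were past 2-fold in either direction, where 0.842% of 10930 genes in HCCLM3 were higher and 2.47% lower, and 0.464% of 10987 genes in MHCC97H were higher and 2.68% lower. The median log2 ratio over all genes was 0.17 in HCCLM3 and 0.16 in MHCC97H.

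A1BG, described only, had a ratio of 3.10 in Hep3B (3.02 to 3.18), against 0.278 in HCCLM3 (0.238 to 0.323) and 0.255 in MHCC97H (0.216 to 0.300). In Hep3B, 32 genes had a higher ratio. Its HCCLM3 and MHCC97H ratios rest on RNC-mRNA levels under 1 RPKM, from 223 and 190 reads, so it is outside the 2-fold counts of those lines.

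RBP4 was the member whose ratio could be compared with most reads in all lines. Its log2 ratio was higher in Hep3B than in HCCLM3 by 1.75 (1.65 to 1.84) and than in MHCC97H by 1.21 (1.05 to 1.37). It was lower in HCCLM3 than in MHCC97H, a difference of -0.54 (-0.72 to -0.35), whereas for TTR, ORM1, ORM2, LRG1 and A1BG the intervals of that difference include 0. A ratio above 1 in Hep3B and below 1 in both other lines was held by 895 of the 9662 genes with at least 1 RPKM in all 6 libraries, or 9.26%, and RBP4 is the only member in that set. Since each value comes from a single library, a difference between lines in the ratio could not be tested against replicate spread.

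**Figure D3:**
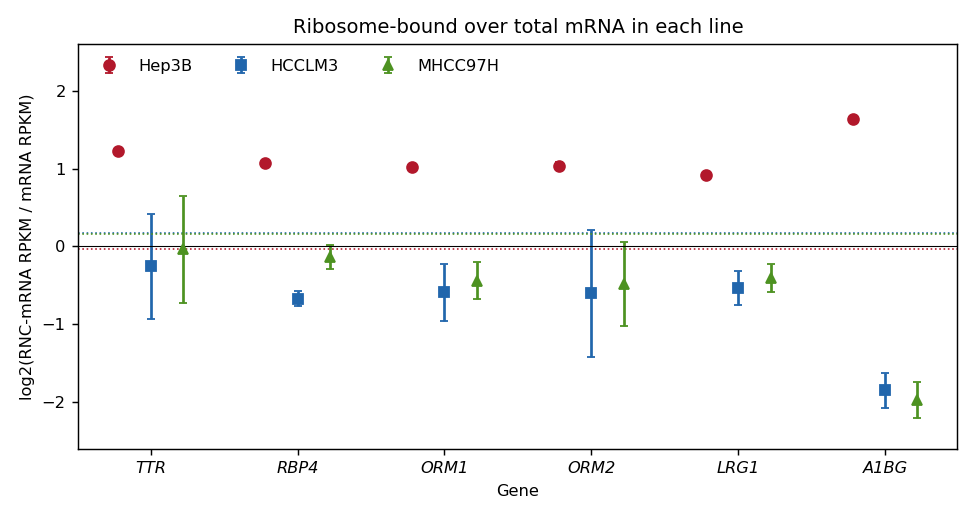
Log2 of RNC-mRNA RPKM over mRNA RPKM for the 6 measured genes, with Hep3B, HCCLM3 and MHCC97H side by side, 1 library per fraction. Bars are exact 95% intervals for counting error and dotted lines are the medians over all genes tested in each line. Hep3B points lie above 0 and HCCLM3 and MHCC97H points below it, with A1BG furthest apart.

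Across the 3 lines taken as replicates of the fraction contrast, the members did not pass. With edgeR's quasi-likelihood test on the counts and the line as a block, 8 of 11905 genes (0.0672%) were higher and 316 (2.65%) lower in RNC-mRNA at a Benjamini-Hochberg adjusted p under 0.05, and 0 of the 5 members tested were. At an unadjusted p under 0.05 there were 3345 genes and 0 of the 5 members. The edgeR log2 difference of RNC-mRNA from mRNA was 0.48 for TTR (adjusted p = 0.495), 0.05 for RBP4 (0.952), 0.01 for ORM1 (0.986), 0.15 for ORM2 (0.851) and -0.03 for LRG1 (0.966). With DESeq2 the count over all genes was 1962 and again 0 of the 5 members passed. TTR and ORM2 passed the filter on mean level only through Hep3B, and A1BG was not tested. Without the Hep3B pair, RBP4 (log2 -0.57, adjusted p = 0.000754), ORM1 (-0.64, 0.000848) and LRG1 (-0.61, 0.000273) were lower in RNC-mRNA by the edgeR test, in a fit of only 4 libraries from related lines where 35% of 11381 genes were called higher and 34.1% lower.

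The genes most like each member over the 6 libraries were found by the Euclidean distance between log2(RPKM + 0.1) profiles, each centred on its mean, among 12995 other genes that reached 1 RPKM in a library. This likeness is a description of 6 points dominated by the difference between Hep3B and the other lines. Nearest to TTR were F10, the coagulation factor X gene, at a distance of 0.26, the nuclear receptor gene NR0B2 at 0.32 and UPK3A at 0.37. Nearest to ORM1 were AGT, which encodes angiotensinogen, at 0.34, SERPINA5, the protein C inhibitor gene, at 0.34, and HPN, the hepsin protease gene, at 0.39. ORM2 had SEPP1, the selenoprotein P gene, at 0.41, SERPINA5 at 0.56 and HPN at 0.59, and the distance between ORM1 and ORM2 was 0.61. LRG1 was closest to SEMA6B at 0.25, PCSK1N at 0.40 and MFAP4 at 0.42. RBP4 and A1BG had no equally close partner. RBP4 was nearest to SSTR2 at 1.22, CKM at 1.28 and CERS1 at 1.30, and A1BG to the sulfotransferase gene SULT2A1 at 0.60, C1orf64 at 0.70 and the sterol reductase gene TM7SF2 at 0.94. SULT2A1 RNC-mRNA was at 23.2 RPKM in Hep3B, against 0.235 in HCCLM3 and 0.197 in MHCC97H. SULT2A1 mRNA was at 8.88 RPKM in Hep3B, against 0.639 in HCCLM3 and 0.592 in MHCC97H.

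The genes on either side, in RefSeq order, showed the line difference at some loci and not at others. On chromosome 18, DSG2 mRNA next to TTR was at 15.4 RPKM in Hep3B, against 18.0 in HCCLM3 and 17.6 in MHCC97H, and B4GALT6 on the other side at 0.956, 1.03 and 1.70 RPKM. On chromosome 10, FFAR4 and PDE6C beside RBP4 were under 1 RPKM in all 6 libraries. On chromosome 9, COL27A1 before ORM1 was at 53.5 RPKM of mRNA in Hep3B, 11.4 in HCCLM3 and 10.2 in MHCC97H, and AKNA, which overlaps ORM2 in RefSeq, at 6.45, 3.89 and 4.06 RPKM. At LRG1 both neighbours followed it. PLIN5, which encodes a lipid droplet protein, had 15.5 RPKM of mRNA in Hep3B, 0.417 in HCCLM3 and 0.499 in MHCC97H, and SEMA6B had 14.3, 0.494 and 0.636 RPKM. ZSCAN22 and ZNF497, the zinc finger genes beside A1BG, were at 2.94 and 3.02 RPKM of mRNA in Hep3B, 3.90 and 2.23 in HCCLM3, and 4.04 and 1.48 in MHCC97H.

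Around VTN on chromosome 17, the adjacent SEBOX, a homeobox gene, had a line. SEBOX RNC-mRNA was at 254 RPKM in Hep3B, against 0.151 in HCCLM3 and 0.130 in MHCC97H, and SEBOX mRNA at 240, 0.415 and 0.244 RPKM in the same order. SARM1 on the other side had 2.43 RPKM of mRNA in Hep3B, 0.117 in HCCLM3 and 0.152 in MHCC97H. How the authors assigned reads where gene models lie close or overlap is unknown here, so no SEBOX value is read as a level of VTN.

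**Figure D4:**
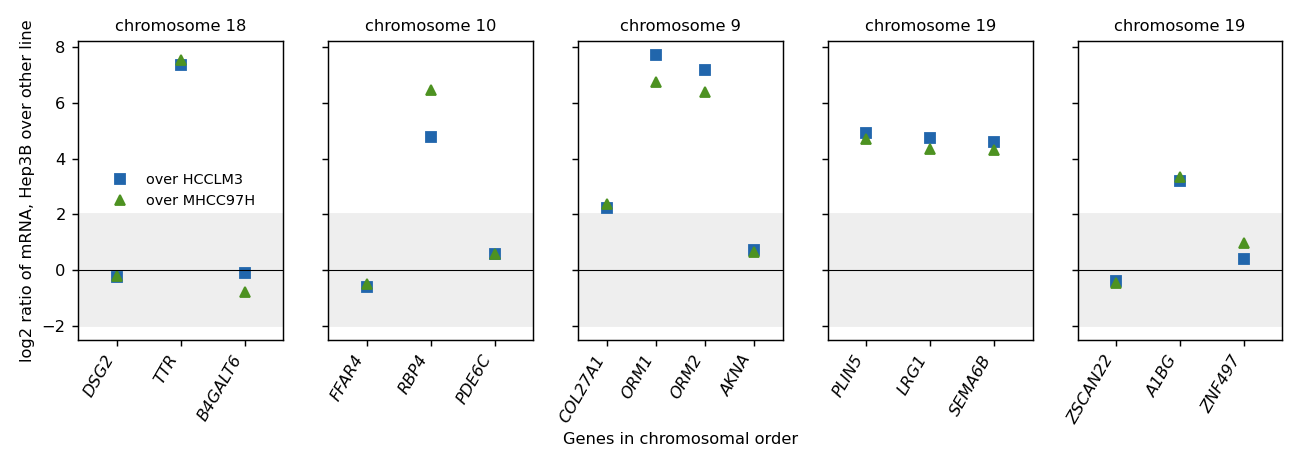
Log2 ratio of mRNA (RPKM + 0.1) of Hep3B over HCCLM3 (squares) and over MHCC97H (triangles) for the 6 measured genes and their neighbours in RefSeq order, 1 panel per locus, with the grey band marking ratios under 4-fold. The neighbours of LRG1 lie at log2 4.29 to 4.92, beside LRG1 itself at 4.32 and 4.72, while those of TTR lie between -0.77 and -0.10.

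Of the genes of thyroid hormone handling, the list that TTR belongs to by function, 5 of 7 tested were past the 4-fold rule and higher in Hep3B mRNA than in HCCLM3 and than in MHCC97H, and 0 were lower, with median log2 ratios of 2.08 and 2.57. In RNC-mRNA, 3 of 6 tested were higher and 0 lower against each other line. For this and the later lists, the shares of all genes called in Hep3B mRNA were 9.92% higher and 8.5% lower over HCCLM3, and 9.44% and 8.16% over MHCC97H. In RNC-mRNA they were 9.74% and 11.1% over HCCLM3, and 9.55% and 11% over MHCC97H. SERPINA7, the thyroxine-binding globulin gene, had 2.28 RPKM of mRNA in Hep3B from 568 reads and no reads in HCCLM3 and MHCC97H, where 3 reads would have been 0.0123 and 0.0112 RPKM. SLC16A10, a transporter gene for aromatic amino acids and thyroid hormone, had 4.82 RPKM of mRNA in Hep3B, 0.00614 in HCCLM3 and 0.00838 in MHCC97H. The lists share genes, so their counts are not separate results. ALB and SERPINA7 are both in this list and among the other plasma carriers, and ALB is also a hepatocyte marker. AMBP is in the lipocalin list and among the other plasma carriers.

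The retinoid genes around RBP4 did not move as a block. Of 17 tested, 1 was higher and 4 lower in Hep3B mRNA than in HCCLM3, and 2 were higher and 3 lower than in MHCC97H, with median log2 ratios of -0.19 and -0.24. Of all genes, 9.92% were higher and 8.5% lower over HCCLM3, and 9.44% and 8.16% over MHCC97H. STRA6, the cell surface receptor gene for RBP4, had 3.77 RPKM of mRNA in Hep3B, against 44.9 in HCCLM3 and 56.4 in MHCC97H, the opposite of its ligand. Its RNC-mRNA level was 2.17 RPKM in Hep3B, against 29.4 in HCCLM3 and 37.5 in MHCC97H. CRABP2, an intracellular retinoic acid-binding protein gene, had 0.554 RPKM of mRNA in Hep3B, against 178 in HCCLM3 and 89.8 in MHCC97H. RARG, a retinoic acid receptor gene, had 0.199 RPKM of mRNA in Hep3B, 12.9 in HCCLM3 and 15.8 in MHCC97H.

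Among the lipocalins, the family of RBP4 and the orosomucoids, 5 of 8 tested were higher and 1 lower in Hep3B mRNA than in either other line. AMBP, the gene of alpha-1-microglobulin, had 854 RPKM of mRNA in Hep3B, 10.4 in HCCLM3 and 21.2 in MHCC97H. C8G, a complement subunit gene, had 85.3, 1.12 and 1.58 RPKM, and APOM, an apolipoprotein gene, 44.1, 1.33 and 2.44 RPKM. LCN2, the siderophore-binding lipocalin that is itself an acute phase gene, went the other way, with 0.0407 RPKM of mRNA in Hep3B, 18.0 in HCCLM3 and 12.2 in MHCC97H.

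Of the other plasma carriers and acute phase proteins, 17 of 20 tested in mRNA were higher and 0 lower in Hep3B than in either other line, with median log2 ratios of 5.79 over HCCLM3 and 5.23 over MHCC97H. AHSG, which encodes fetuin A, had 4064 RPKM of mRNA in Hep3B, 3.79 in HCCLM3 and 2.94 in MHCC97H. GC, the vitamin D-binding protein gene, had 265, 0.0351 and 0.103 RPKM, and A2M, the alpha-2-macroglobulin gene, 152, 0.0540 and 0.0607 RPKM. Some major acute phase genes were low even in Hep3B; these were named after their values were seen. CRP had 12 mRNA reads in Hep3B and none in HCCLM3 or MHCC97H, SAA1 had 1 read in Hep3B, 9 in HCCLM3 and 14 in MHCC97H, and HP, the haptoglobin gene, had 1.52 RPKM in Hep3B, against 0.364 in HCCLM3 and 0.345 in MHCC97H.

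The genes that carry IL-6, IL-1 and glucocorticoid signals to acute phase promoters were on balance no higher in Hep3B. Of 16 tested, 1 was higher and 3 lower in Hep3B mRNA than in HCCLM3, and of 17 tested, 1 was higher and 5 lower than in MHCC97H, with median log2 ratios of -0.07 and -0.23. In RNC-mRNA, 1 of 17 tested was higher against each other line, while 4 were lower over HCCLM3 and 6 over MHCC97H. The RNC-mRNA medians were -1.09 and -1.12, against -0.25 and -0.26 over all genes. SOCS3, a feedback inhibitor and target gene of IL-6 signalling, had 0.0993 RPKM of mRNA in Hep3B, 7.42 in HCCLM3 and 11.4 in MHCC97H. OSMR, the oncostatin M receptor gene, had 0.156, 8.77 and 8.81 RPKM, and LIFR, which encodes another receptor of that family, 0.0261, 0.774 and 1.06 RPKM. IL1RAP, the IL-1 receptor accessory gene, was the member of the list that was higher, at 13.6 RPKM in Hep3B, against 1.48 in HCCLM3 and 1.34 in MHCC97H. SOCS3, OSMR, LIFR and IL1RAP were named for the size of their ratios. In mRNA, neither call was made for 12 of the 16 genes over HCCLM3 and 11 of the 17 over MHCC97H. IL6ST, STAT3 and JAK1, of the same list and named after their values were seen, differed little in mRNA. IL6ST had 5.94, 5.07 and 6.96 RPKM of mRNA in Hep3B, HCCLM3 and MHCC97H. STAT3 had 17.7, 18.4 and 17.4 RPKM, and JAK1 19.7, 20.6 and 18.3 RPKM. Whether these genes bear on the levels of the orosomucoids and LRG1 was not tested.

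Liver transcription factors were higher in Hep3B, 11 of 18 in mRNA over HCCLM3 and 10 of 18 over MHCC97H, with 0 lower and median log2 ratios of 2.98 and 2.35. NR0B2 had 62.0 RPKM of mRNA in Hep3B, against 0.346 in HCCLM3 and 0.315 in MHCC97H. ONECUT1 and NR5A2, a homeobox and a nuclear receptor gene, had 28.8 and 9.73 RPKM in Hep3B, 0.316 and 0.321 in HCCLM3, and 0.633 and 0.258 in MHCC97H. HNF4A, named after its values were seen as a standard liver regulator, had 94.9 RPKM in Hep3B, against 11.3 in HCCLM3 and 12.0 in MHCC97H. FOXA2, named likewise, had 31.6, 39.5 and 35.0 RPKM, so the factors did not all follow the carriers. Other factors, also named after their values were seen, went either way. FOXA1 had 45.4, 6.46 and 17.6 RPKM of mRNA in the same order, and FOXA3 43.5, 3.57 and 2.52 RPKM. CEBPB had 31.9, 96.6 and 120 RPKM, a difference under the 4-fold rule.

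**Figure D5:**
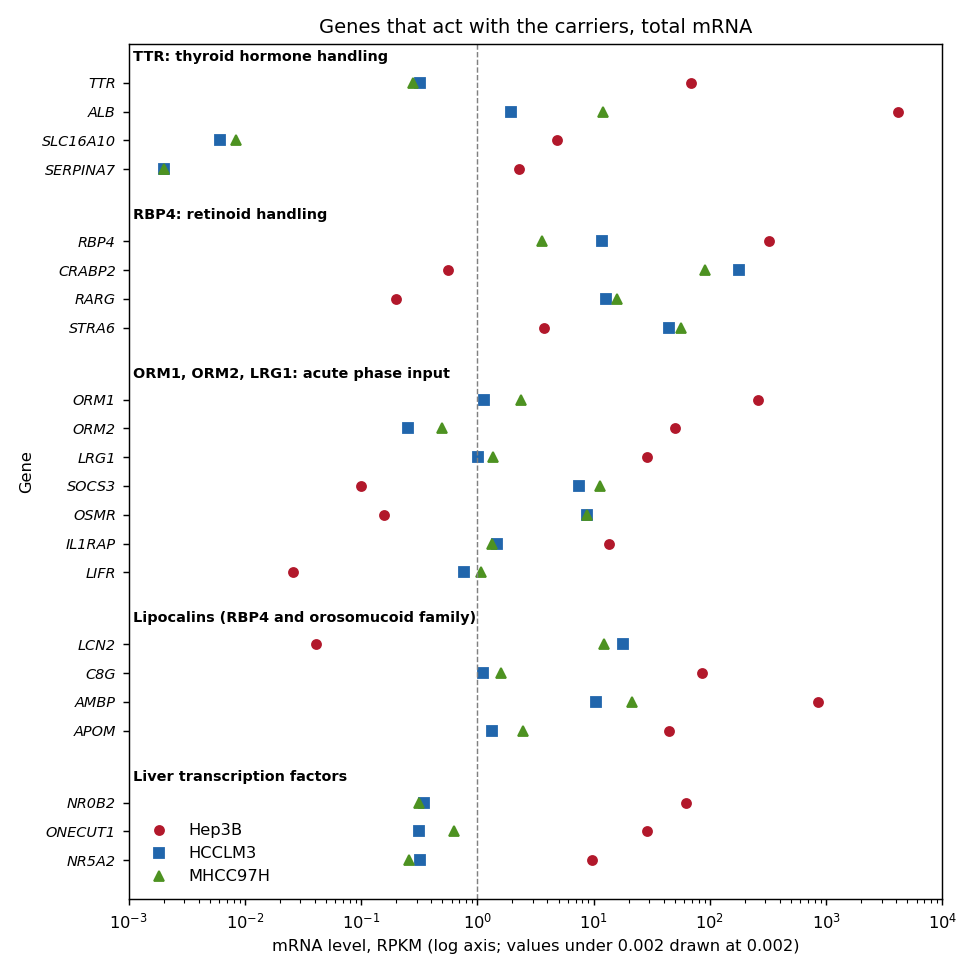
mRNA level in RPKM on a log axis of member genes and of genes named from 5 lists, grouped by function, with Hep3B, HCCLM3 and MHCC97H as separate symbols, 1 library each, and the dashed line at 1 RPKM. STRA6, CRABP2, RARG, SOCS3, OSMR, LIFR and LCN2 are lower in Hep3B than in both other lines, and SERPINA7, with no reads in HCCLM3 and MHCC97H, is drawn there near the left edge.

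Of the receptors and partners of VTN, 0 of 9 tested were higher and 3 were lower in Hep3B mRNA against each other line. PLAU, the urokinase gene, had 0.907 RPKM of mRNA in Hep3B, against 15.6 in HCCLM3 and 13.3 in MHCC97H, and PLAUR, the urokinase receptor gene, 4.02, 20.3 and 17.6 RPKM. The list of TGF-beta receptors and mediators through which LRG1 is known to act also holds CYCS, the cytochrome c gene. In it, 1 of 11 genes was higher in Hep3B mRNA than in HCCLM3 and 1 of 12 than in MHCC97H, with 0 lower. The shares of all genes called higher were 9.92% and 9.44%. SMAD5 was the higher gene in both comparisons, at 14.2 RPKM of mRNA in Hep3B, against 2.41 in HCCLM3 and 3.09 in MHCC97H. In RNC-mRNA no gene of the list was higher, and 1 of 12 was lower in Hep3B than in HCCLM3 and 2 of 12 than in MHCC97H. SMAD5 RNC-mRNA was at 6.81 RPKM in Hep3B, against 3.20 in HCCLM3 and 4.06 in MHCC97H. ENG, the endoglin gene, had 0.807 RPKM of mRNA in Hep3B, against 2.65 in HCCLM3 and 1.40 in MHCC97H.

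The machinery that loads secreted proteins into the endoplasmic reticulum did not differ by 4-fold between lines, with 0 of 30 genes higher or lower in either fraction. Between Hep3B and the other lines, each such call was made for 8.16% to 11.1% of all genes. In mRNA its median log2 ratio was 0.00 over HCCLM3 and 0.03 over MHCC97H. Its RNC-mRNA to mRNA ratio, on the deposited scaling, had median log2 values of 0.22 for Hep3B, 0.23 for HCCLM3 and 0.27 for MHCC97H. Over all genes tested the medians were -0.03, 0.17 and 0.16 in the same order, so the list stood furthest above all genes in Hep3B. Past 2-fold were 0 of 30 genes in each line. Of all genes, 1.89% were higher and 7.73% lower in Hep3B. The shares were 0.842% and 2.47% in HCCLM3, and 0.464% and 2.68% in MHCC97H. Among the other plasma carriers and acute phase genes, 4 of 19 tested had a ratio of at least 2 in Hep3B, a call made for 1.89% of all genes. Their median log2 was 0.27 in Hep3B, against -0.40 in HCCLM3 and -0.36 in MHCC97H, where 7 were tested in each. The Hep3B median of 1.05 for the 6 member genes includes A1BG, which was picked on this ratio, and its difference from 0.27 was not tested.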

How the data were processed

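Polyadenylated RNC-mRNA and mRNA of Hep3B, HCCLM3 and MHCC97H were sequenced from NEBNext libraries, per the labels' protocols. The authors deposited, per library, read counts and RPKM values of genes; a gene with no line in a table was taken as 0 there, except VTN, which had no line in any table and was not analysed. RPKM was scaled by a library total that the authors set. Aligner, read counter, strand setting and treatment of shared or overlapping reads were not given in the sources used here. Build hg19 and edgeR appear in the submitters' processing notes. Reads per library were 119086844 to 147788269.

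The members and gene lists were chosen with earlier results of these data known. Samples were grouped by line and fraction from the labels. Single libraries were compared by size rules on (RPKM + 0.1), requiring 1 RPKM in the higher library (4-fold, lines) or in both (2-fold, fractions), and exact binomial or Poisson 95% intervals (SciPy 1.17.1). The fraction contrast used edgeR 4.0.16 (quasi-likelihood, TMM, Benjamini-Hochberg over genes with a mean of at least 1 RPKM, threshold 0.05; R 4.3.3), with the line as a block, which pairs the fractions of a line. The script was tested on simulated data. Alternatives were the pseudocount, the minimum, 2 rescalings, summed ORM1 and ORM2 reads, DESeq2 1.42.0, other filters, no block and leaving out each line. Genes named were the members, the 3 nearest profiles of each, the adjacent protein-coding genes in RefSeq (used for names, chromosome and order) and up to 4 of each list with the largest mean mRNA ratio. Some genes of the lists are not reported here.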

Additional observations from a re-analysis of the deposited data

Results flagged for a closer look

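For each of the 6 measured genes the log2 ratio of RNC-mRNA to mRNA was above 0 in Hep3B and below 0 in both HCCLM3 and MHCC97H. The Hep3B value minus the mean of the other lines was 1.38 for TTR, 1.48 for RBP4 and 1.54 for ORM1. It was 1.58 for ORM2, 1.39 for LRG1 and 3.54 for A1BG. These values come from plain ratios of RPKM. These genes were flagged only because the lines lie on opposite sides of 0. With 1 library for each line and fraction the differences were not tested, and A1BG was picked for this pattern. The HCCLM3 and MHCC97H ratios of TTR and ORM2 rest on 24 to 70 reads a library. Their intervals include a ratio of 1, as does that of RBP4 in MHCC97H. The same pattern of signs was held by 9.26% of the 9662 genes with at least 1 RPKM in all 6 libraries. RBP4 is the only member among those genes.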

How the results depend on the processing

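The 6 members stayed higher in Hep3B in the 4 line comparisons under each alternative of pseudocount, minimum or scaling. With orosomucoid reads summed, ORM1 and ORM2 count as 1 gene, and it and the other members stayed higher too. Among the members' ratios between lines and between fractions, only TTR in RNC-mRNA of HCCLM3 over MHCC97H, a ratio near 1, changed sign, at log2 -0.0054 as deposited and 0.0057 when rescaled to the median ratio. With no minimum RPKM, 1 member (A1BG) was past 2-fold lower in RNC-mRNA in HCCLM3 and 1 in MHCC97H, against 0. In the edgeR test of the fractions, the main count was 324 genes. It was 0 with no replicate block (873 at an unadjusted p under 0.05), 1874 with no filter, 1962 with DESeq2, and 90 to 7870 when each line was left out. Leaving out Hep3B gave 7870 genes and 3 members, leaving out HCCLM3 90 genes and 0 members. The log2 difference of LRG1 changed sign to 0.99 with no replicate block and 0.11 with no filter, and ranged from -0.61 to 0.28 when a line was left out. ORM1 turned to -0.028 with DESeq2 and ranged from -0.64 to 0.33, and RBP4 ranged from -0.57 to 0.49, without each line in turn. The cause was not tested. Depth limits TTR and ORM2 outside Hep3B, and without replicates no value carries culture-to-culture error.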
